A study of Mus musculus with 8 samples.

Results

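The 7 genes described here encode enzymes that reduce or oxidise steroids or the aldehydes made beside them: the aldo-keto reductases Akr1c18, Akr1c14, Akr1b7, Akr1b8 and Akr1b3, and the 11β-hydroxysteroid dehydrogenases Hsd11b1 and Hsd11b2. They were taken by name from a table of 54532 genes, and all 7 were found in it. The mRNA of MA-10 cells, a mouse Leydig tumour cell line that secretes progesterone, was sequenced in 4 wild-type (WT) and 4 MTP knockout (KO) libraries. MTP, encoded by Mttp, is the microsomal triglyceride transfer protein that loads lipid onto lipoproteins. Both groups were cultured for 48 h and then stimulated with 0.5 mM 8-BrcAMP, a cyclic AMP analogue, for 3 h, so every library came from stimulated cells. The knockout was made with CRISPR/Cas9 and grown from single cells, and no source used here names the clone that was sequenced. A difference due to the loss of MTP and a difference due to the choice of clone therefore cannot be told apart. The 4 libraries within each group are described by the study as biological replicates of the same line, and how the cultures were kept apart is not described, so the p-values measure the spread between these libraries.

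Leydig cells make steroids by cleaving the side chain of cholesterol in mitochondria, and the pregnenolone that results is turned into progesterone and then androgens. Steroid hormones are inactivated by dehydrogenases that change a hydroxyl or keto group at a single carbon. Akr1c18, the mouse 20α-hydroxysteroid dehydrogenase, turns progesterone into its weak 20α-hydroxy form, a step best known from the corpus luteum at the end of its life. Akr1c14, a 3α-hydroxysteroid dehydrogenase, acts on 5α-reduced androgens and progestins. The Akr1b enzymes are known chiefly for aldehyde substrates: Akr1b7 for the isocaproaldehyde released by side-chain cleavage, Akr1b3 (aldose reductase) for glucose, and Akr1b8 for reactive aldehydes. Hsd11b1 regenerates active glucocorticoid in most tissues, whereas Hsd11b2 inactivates it, as in the kidney. In rat Leydig cells 11β-hydroxysteroid dehydrogenases are known for shielding testosterone production from corticosterone.

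Library totals were 15075610 to 16321292 counts in WT and 14927989 to 18394797 in KO (exact permutation test, p = 0.20). Mttp was at 13.1 ± 1.04 CPM (counts scaled to library size) in WT and 5.87 ± 1.27 CPM in KO (SD, n = 4). On the log2 scale this was a change of -1.15 (edgeR, SE 0.135, adjusted p = 4.45e-06), so the targeted transcript was lower but still counted in the KO libraries. Mitochondrially encoded genes took 4.09 ± 0.511% of counts in WT and 5.37 ± 0.541% in KO (exact permutation test, p = 0.0286, the smallest that 4 against 4 libraries allow). All 8 Leydig markers passed the low-count filter, 6 of them rose and none fell, and their summed level was 6947 to 7836 CPM in WT and 7819 to 8519 CPM in KO. These ranges overlap, and Star, which did not pass the test, made up most of the sum (means of 5685 CPM in WT and 5290 CPM in KO). Markers of other cell types moved as well. The Sertoli list was at 234 to 251 CPM in WT and 373 to 417 CPM in KO, and of its 4 tested genes Rhox5 rose and none fell. The macrophage list was at 16.4 to 21.4 and 6.47 to 8.98 CPM, with Csf1r and Cd68 both lower in KO and its defining genes Adgre1 and Ptprc at 0 in every library. The endothelial list was at 182 to 210 CPM in WT and 100 to 120 CPM in KO, and Cdh5 made up most of it while Pecam1 was below 1 CPM in both groups. The germ list was at 1.89 to 4.53 and 3.57 to 5.97 CPM, and the adrenal cortex list at 689 to 713 and 745 to 837 CPM with Mc2r at 0. Mrap made up nearly all of the adrenal sum (698 and 780 CPM, log2 fold change 0.16), and the other adrenal genes tested rose more, Cyp11b1 from 2.54 to 12.2 CPM (2.27, adjusted p = 7.80e-09) and Cyp11b2 from 0.222 to 1.01 CPM (2.14, adjusted p = 0.000340). The part of these lists in the results below was not tested, nor was that of the mitochondrial share. Every library came from the MA-10 line, so the lists are not read as counts of other cell types. In bulk RNA, a change in some of the cells and a change in every cell cannot be told apart.

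Of the 7 genes, Akr1c18 and Hsd11b1 fell, Akr1b7 rose, and Akr1c14, Akr1b8, Akr1b3 and Hsd11b2 did not pass the test (edgeR quasi-likelihood test, Benjamini-Hochberg adjusted p below 0.05). Across all 13185 genes tested, 42.7% passed this test, 21.7% higher and 21.1% lower in KO, so 3 of 7 is close to the share among all genes. When an absolute log2 fold change above 0.5 was also required, Akr1c18 and Hsd11b1 were left, beside 8.44% of all genes that fell this far, 7.35% that rose this far and 15.8% in all. The median log2 fold change of the 7 was -0.11, against -0.00 over all genes. The 4 WT and 4 KO libraries did not overlap for Akr1c18, Akr1b7, Akr1b8 and Hsd11b1, as for 38.6% of all genes (19.7% higher and 18.9% lower in KO). Akr1c18 ranked 68 and Hsd11b1 150 of 13185 by the size of their change. Both were scarce, and both passed the low-count filter in all 4 WT libraries but kept 10 counts in only 3 of 4 KO libraries.

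**Figure D1:**
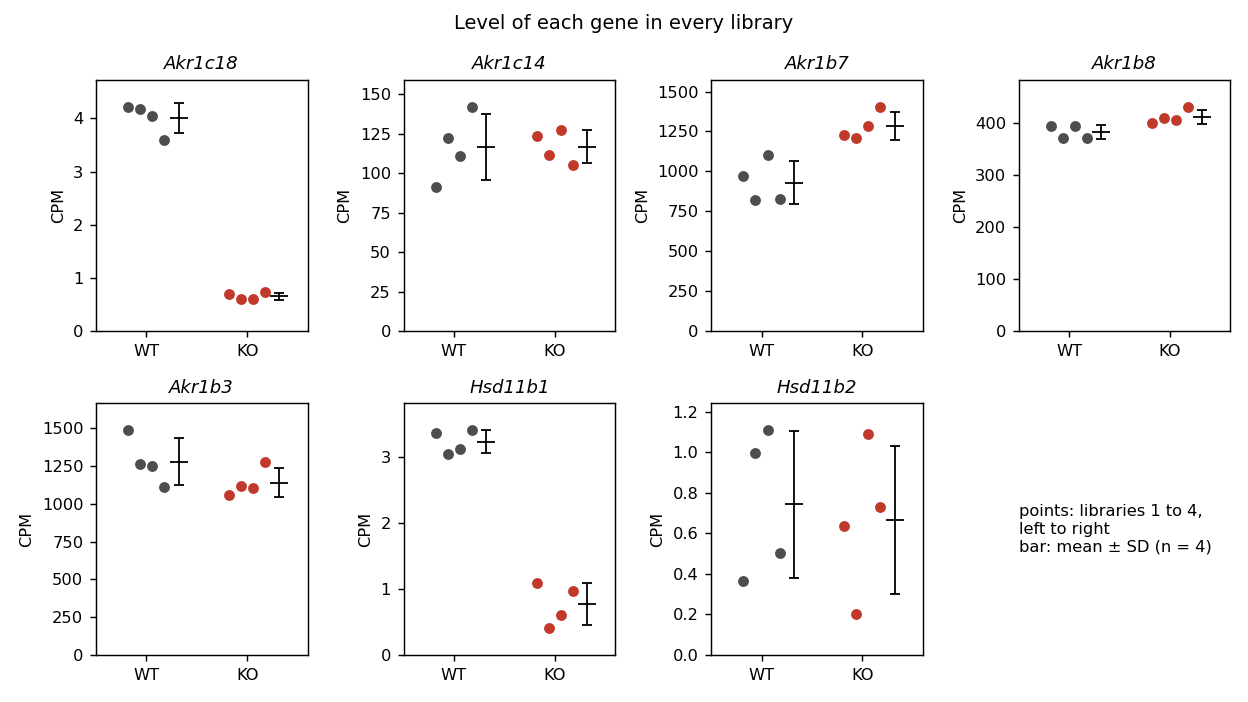
CPM of each of the 7 genes (y axis, from 0) in the 4 WT and 4 KO libraries, with points for libraries 1 to 4 from left to right and the bar for the mean ± SD. Akr1c18 and Hsd11b1 sat lower and Akr1b7 and Akr1b8 higher in all 4 KO libraries, although for Akr1b8 the means were only 382 and 411 CPM, and the groups overlapped for Akr1c14, Akr1b3 and Hsd11b2.

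Akr1c18 (ENSMUSG00000021214) lies on chromosome 13, positions 4132615 to 4150654 of GRCm38, on the minus strand. Akr1c14 (ENSMUSG00000033715) lies beside it at 4049011 to 4090688 on the plus strand. The coding sequences of these neighbours are identical at 76.0% of aligned bases in GENCODE M39, yet their mRNAs differed in both level and response. The 250 bases before the RefSeq start of each gene (GRCm38.p6) are shown to let the pair be compared, for Akr1c18 at chr13:4150647-4150896 on the minus strand and for Akr1c14 at chr13:4059341-4059590 on the plus strand. The Akr1c14 start lies inside the span the table gives for the gene. Neither holds any of the 4 motifs searched on both strands, which are named with the Hsd11b1 promoter, and nothing is marked in capitals.
Akr1c18: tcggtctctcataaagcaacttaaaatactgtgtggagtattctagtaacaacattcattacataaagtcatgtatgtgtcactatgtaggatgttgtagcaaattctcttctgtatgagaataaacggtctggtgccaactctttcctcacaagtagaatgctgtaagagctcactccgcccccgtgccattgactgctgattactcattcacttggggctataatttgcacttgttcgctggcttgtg
Akr1c14: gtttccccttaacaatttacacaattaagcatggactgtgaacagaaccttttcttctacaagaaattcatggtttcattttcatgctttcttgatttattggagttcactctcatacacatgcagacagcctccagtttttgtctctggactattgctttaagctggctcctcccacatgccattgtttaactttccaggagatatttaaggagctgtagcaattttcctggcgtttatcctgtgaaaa

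Akr1c18 was at 4.22, 4.18, 4.04 and 3.60 CPM in WT libraries 1 to 4 and at 0.693, 0.607, 0.599 and 0.731 CPM in KO libraries 1 to 4. The counts behind these values were 57 to 69 in WT and 9 to 12 in KO. Every KO library was far below every WT library, and the spread within each group was small beside the gap. The mean fell from 4.01 ± 0.285 to 0.658 ± 0.0652 CPM (SD, n = 4), with a log2 fold change of -2.59 (standard error, SE, 0.209, 95% interval -3.04 to -2.15, adjusted p = 7.26e-08), or 6.04-fold lower with an interval of 4.44 to 8.21. Leaving out any 1 library gave -2.64 to -2.55. Per length, Akr1c18 was at 8.85 ± 0.935 TPM (counts scaled to gene length and library size) in WT, above 67.5% of genes with at least 1 count, and at 1.45 ± 0.122 TPM in KO, above 51.9%. Of its 2648 windows of 50 bases, 7 (0.26%) also occur in transcripts of another gene.

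Akr1c14 was at 91.5, 122, 111 and 142 CPM in WT and at 124, 111, 127 and 105 CPM in KO. The KO libraries lay within the WT range. The means were 117 ± 21.2 and 117 ± 10.4 CPM, and the log2 fold change was 0.00 (SE 0.101, adjusted p = 0.981) with a 95% interval of -0.21 to 0.22, which leaves out a change of the size seen for Akr1c18. Within libraries, Akr1c18 stood 10.6-fold below Akr1c14 in WT and 63.3-fold below it in KO per length, a difference in the mean log2 ratio of -2.57 (-3.41 ± 0.356 in WT, -5.99 ± 0.229 in KO, exact permutation test, 2-sided, p = 0.0286 and also 0.0286 adjusted over the 5 ratios tested). Without KO library 3 it was -2.49, with a permutation p of 0.0571 after adjustment over the 5 ratios. The WT libraries (-3.87 to -3.00) and the other KO libraries (-6.02 to -5.68) still did not overlap. The other Akr1c genes of the cluster gave little or no signal: Akr1c6, Akr1c12, Akr1c19 and Akr1c21 were at 0 in all 8 libraries, and Akr1c20 and Akr1c13 reached at most 3 and 11 counts. Within 500 kb of the pair 5 other genes were tested, of which Akr1e1 rose (0.20) and Net1 fell (-0.29). The median of all genes tested on chromosome 13 was 0.01.

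The AKR1B genes described here lie in a cluster on chromosome 6 of GRCm38: Akr1b3 (ENSMUSG00000001642) at 34302434 to 34317478 on the minus strand, Akr1b8 (ENSMUSG00000029762) at 34354119 to 34368463 and Akr1b7 (ENSMUSG00000052131) at 34412334 to 34423142, both on the plus strand. Akr1b10, another AKR1B gene, lies between Akr1b8 and Akr1b7 at 34384218 to 34396950. The coding sequences of Akr1b3, Akr1b8 and Akr1b7 are close copies, with 84.8% identity between Akr1b7 and Akr1b8, 72.0% between Akr1b7 and Akr1b3 and 71.9% between Akr1b8 and Akr1b3. Of the AKR1B genes among the 7, only Akr1b7 passed the test. Its promoter is shown (chr6:34412112-34412361, plus strand, RefSeq, GRCm38.p6), and it holds none of the 4 motifs.
Akr1b7: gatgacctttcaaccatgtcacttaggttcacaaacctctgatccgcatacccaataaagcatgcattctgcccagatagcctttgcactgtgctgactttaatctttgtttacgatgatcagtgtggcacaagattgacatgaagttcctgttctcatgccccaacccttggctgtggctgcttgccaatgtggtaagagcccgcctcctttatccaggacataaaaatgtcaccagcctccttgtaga

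Akr1b7 was at 970, 822, 1102 and 827 CPM in WT and at 1229, 1210, 1285 and 1405 CPM in KO. All 4 KO libraries were above all 4 WT libraries. The mean rose from 930 ± 134 to 1282 ± 87.9 CPM, 1.38-fold (log2 fold change 0.46, SE 0.0799, 95% interval 0.29 to 0.63, adjusted p = 0.000211), and the estimate is below the limit of 0.5. It was above that limit relative to the median of all genes tested on chromosome 6 (0.56, adjusted p = 4.05e-05) and without WT library 3 (0.56, adjusted p = 1.83e-05), and 0.41 to 0.50 without any other library. Akr1b7 was among the most abundant transcripts of the cells, at 1935 ± 313 TPM in WT and 2673 ± 202 TPM in KO, above 99.9% of detected genes in both groups. The pseudogene Gm13857, which overlaps the end of Akr1b7 on the opposite strand, went from 13.2 to 20.3 CPM (log2 fold change 0.62, adjusted p = 0.000180). No source used here gives the strand setting of the counting, so reads of the pair cannot be told apart, but Gm13857 is small beside Akr1b7. In GENCODE M39, 17.6% of the exon bases of Akr1b7 are shared with Gm68356 on the opposite strand, a gene not analysed here. Of the 5512 windows of 50 bases in Akr1b7 transcripts, 766 (13.9%) also occur in transcripts of other genes.

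Akr1b8 was at 393, 371, 394 and 371 CPM in WT and at 399, 408, 405 and 431 CPM in KO. The groups did not overlap, though the closest libraries were 394 and 399 CPM. The means were 382 ± 13.1 and 411 ± 13.8 CPM, and the log2 fold change of 0.10 (SE 0.0449, 95% interval 0.01 to 0.20) did not pass the test (adjusted p = 0.0740). The median of all genes tested on chromosome 6 was -0.10, and relative to it Akr1b8 was at 0.20 and passed (adjusted p = 0.00209).

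Akr1b3 was at 1486, 1266, 1251 and 1112 CPM in WT and at 1060, 1116, 1105 and 1276 CPM in KO. The groups overlapped, with WT library 1 the highest and KO library 4 above the other KO libraries. The log2 fold change was -0.17 (SE 0.0749, 95% interval -0.33 to -0.01, adjusted p = 0.0859) with means of 1279 ± 155 and 1139 ± 94.3 CPM. The value was closer to 0 without WT library 1 (-0.087, adjusted p = 0.279) and relative to the chromosome 6 median (-0.070, adjusted p = 0.497). It passed the test without WT library 4 (-0.23, adjusted p = 0.0123) and without KO library 4 (-0.22, adjusted p = 0.0283). Of the 8722 windows of 50 bases in Akr1b3 transcripts, 1282 (14.7%) also occur elsewhere.

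The balance among the Akr1b3, Akr1b8 and Akr1b7 mRNAs moved toward Akr1b7. In WT, Akr1b7 stood 4.75-fold above Akr1b3 per length, and in KO 7.37-fold above it, a difference in mean log2 ratio of 0.63 (2.25 ± 0.207 and 2.88 ± 0.0515, exact permutation test, p = 0.0286, adjusted 0.0286). Akr1b8 stood 1.68-fold above Akr1b3 in WT and 2.02-fold above it in KO, a difference of 0.27 (0.75 ± 0.144 and 1.01 ± 0.0682, exact permutation test, p = 0.0286, adjusted 0.0286). That adjusted p reached 0.0571 without WT library 1 or without any 1 of the 4 KO libraries. The WT libraries (0.57 to 0.90) and the KO libraries (0.92 to 1.07) did not overlap in this ratio. For Akr1b7 against Akr1b3 the adjusted p reached 0.0571 without KO library 1, 3 or 4. Here too the WT libraries (2.09 to 2.53) and the KO libraries (2.83 to 2.93) did not overlap. Within 500 kb 10 other genes were tested, of which Slc35b4 (0.24), Akr1b10 (0.18) and Gm13857 rose and Cald1 (-0.53) fell, 40% of them beside 42.7% of all genes.

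Hsd11b1 (ENSMUSG00000016194) lies on chromosome 1 at 193221634 to 193264075 of GRCm38, on the minus strand. The RefSeq entry used here starts inside this span. The 250 bases before that start (chr1:193242361-193242610, minus strand, GRCm38.p6) hold the only motif match among the 5 genes with a promoter entry. It is the antioxidant response element TGACNNNGC, read on the opposite strand at -191 to -183 from the start, and is in capitals. This short motif occurs in 10.2% of all 32851 promoters. The other motifs were the steroidogenic factor 1 sites CAAGGTCA (1.33% of promoters) and CAAGGCCA (1.99%) and the cyclic AMP response element TGACGTCA (1.55%). The motifs may overlap one another in sequence, but the single match is to the antioxidant response element alone.
Hsd11b1: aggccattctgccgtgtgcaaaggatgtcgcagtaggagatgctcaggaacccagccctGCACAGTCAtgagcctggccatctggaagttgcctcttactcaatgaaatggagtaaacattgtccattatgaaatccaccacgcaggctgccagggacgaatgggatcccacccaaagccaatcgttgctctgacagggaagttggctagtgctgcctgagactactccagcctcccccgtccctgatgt

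Hsd11b1 was at 3.37, 3.05, 3.13 and 3.41 CPM in WT and at 1.10, 0.404, 0.599 and 0.975 CPM in KO. The counts were 46 to 55 in WT and 6 to 19 in KO. Every KO library was below every WT library, and the KO libraries differed among themselves more than the WT libraries did. The mean fell from 3.24 ± 0.176 to 0.769 ± 0.323 CPM, which is -2.05 on the log2 scale (SE 0.260, 95% interval -2.60 to -1.50, adjusted p = 9.87e-06), or 4.15-fold lower with an interval of 2.83 to 6.08. Per length it was at 2.02 ± 0.108 TPM in WT and 0.479 ± 0.190 TPM in KO.

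Lamb3, a laminin chain gene, spans Hsd11b1 on the opposite strand, and it fell with it. Lamb3 was at 23.1, 18.7, 17.8 and 16.3 CPM in WT and at 4.28, 3.91, 4.46 and 4.57 CPM in KO (log2 fold change -2.14, SE 0.124, adjusted p = 1.76e-09). The exons of the genes share 0 bases in GENCODE M39, and whether reads from unspliced Lamb3 RNA entered the Hsd11b1 counts was not tested. G0s2, which lies 8086 bases from Hsd11b1, also fell (-0.80). Of the 8 other genes tested within 500 kb, 2 rose and 3 fell, 62.5% beside 42.7% of all genes.

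Hsd11b2 (ENSMUSG00000031891, chromosome 8, 105518755 to 105523988, plus strand) was near the limit of detection, with 6, 15, 17 and 8 counts in WT and 11, 3, 20 and 12 in KO. These counts equal 0.367, 0.994, 1.11 and 0.505 CPM in WT and 0.636, 0.202, 1.09 and 0.731 CPM in KO. The groups overlapped throughout. The log2 fold change was -0.11 (SE 0.443, adjusted p = 0.866), and its 95% interval of -1.05 to 0.83 leaves room for a change of about 1 on the log2 scale in either direction. Within libraries, Hsd11b1 stood 2.00-fold above Hsd11b2 per length in WT and at 0.535 of it in KO, a difference in mean log2 ratio of -1.90 (1.00 ± 0.804 and -0.90 ± 0.788, exact permutation test, p = 0.0286, adjusted 0.0286). Without KO library 3 the difference was -1.52 and the adjusted p 0.0571. The WT libraries (0.26 to 1.89) and the other KO libraries (-0.81 to -0.32) still did not overlap. Around Hsd11b2, 40 other genes were tested, of which 6 rose and 9 fell, 37.5% in all.

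**Figure D2:**
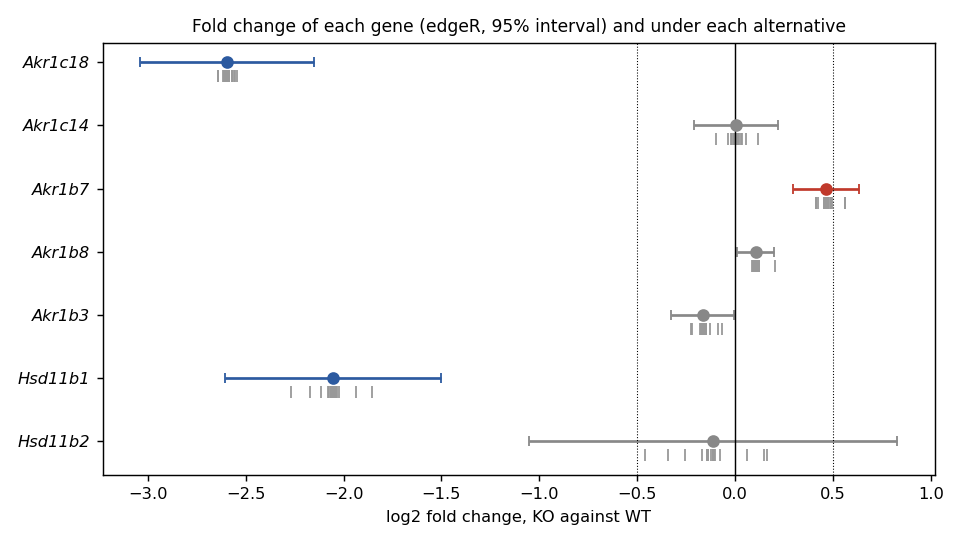
Log2 fold change of each gene, KO against WT (x axis), with the edgeR 95% interval and, as grey ticks under each point, the value under every alternative computed. Red marks a gene that rose, blue a gene that fell and grey one that did not pass the test, and dotted lines mark 0.5 in each direction. Akr1c18 (-2.59) and Hsd11b1 (-2.05) stand apart from the other 5, and only Hsd11b2 has an interval wider than that of Hsd11b1.

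Per length, the 7 mRNAs had the same order in all 4 WT libraries: Akr1b7, Akr1b8, Akr1b3, Akr1c14, Akr1c18, Hsd11b1 and Hsd11b2. The first 4 kept their places in all 4 KO libraries. Below them, Akr1c18 and Hsd11b2 took the 5th or 6th place depending on the library, and Hsd11b1 was last in all 4. Akr1b7 made up 61.7 ± 2.81% of the summed TPM of the 7 genes in WT and 69.1 ± 0.715% in KO, Akr1b8 21.8 ± 1.41% and 18.9 ± 0.592%. Akr1b3 made up 11.4 to 14.4% in the WT libraries and 9.09 to 9.69% in the KO libraries. The sum was 3127 ± 379 TPM in WT and 3867 ± 262 TPM in KO. The sum therefore follows the AKR1B genes, and the genes that fell most were a minor share of it in both groups.

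**Figure D3:**
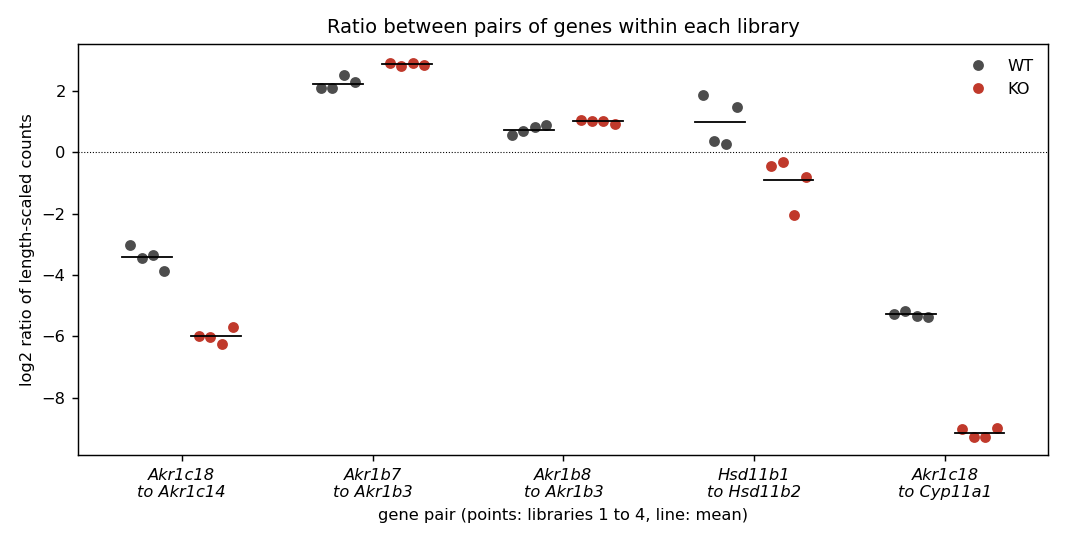
Log2 ratio of length-scaled counts for 5 gene pairs (x axis) in each WT (grey) and KO (red) library, with a line for the mean of 4 libraries. WT and KO do not overlap for any pair, and the gap is widest for Akr1c18 to Cyp11a1, with means of -5.28 and -9.13.

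Several genes of progesterone production rose in the KO libraries, where Akr1c18 was low. Of 12 production genes tested, 6 rose, 1 fell and 5 passed in neither direction (median 0.12). Cyp11a1, the side-chain cleavage enzyme, rose from 625 to 1531 CPM (1.29, adjusted p = 8.77e-12), Hsd3b1, which makes progesterone, rose from 21.4 to 67.3 CPM (1.66), and Cyp17a1, which takes progesterone on toward androgens, rose from 22.8 to 74.0 CPM (1.70), while Hsd3b6 fell from 7.06 to 3.47 CPM (-1.02). Relative to the medians of all genes on their chromosomes (0.51 on chromosome 19 and -0.22 on chromosome 3), Cyp17a1 stood at 1.19, Hsd3b1 at 1.88 and Hsd3b6 at -0.80. The cholesterol importer Star, at 5685 CPM in WT, did not pass (-0.10). Per length, Akr1c18 stood 38.9-fold below Cyp11a1 in WT and 561-fold below it in KO. The difference in mean log2 ratio was -3.85 (-5.28 ± 0.0904 and -9.13 ± 0.152, exact permutation test, p = 0.0286, adjusted 0.0286). Akr1c18 fell and Cyp11a1 rose, each with no overlap between the groups. The p of their ratio was thereby fixed in advance at its smallest value and adds no support of its own. Without KO library 3 the permutation p adjusted over the 5 ratios was 0.0571. The WT libraries (-5.36 to -5.16) and the other KO libraries (-9.26 to -8.99) still did not overlap. Of 8 other aldo-keto reductases tested, 4 rose and 1 fell (median 0.08). Akr1cl rose from 700 to 1031 CPM (0.56), Akr1e1 by 0.20 and Akr1b10 by 0.18, Akr7a5 fell (-0.20), and the abundant Akr1a1 was at 426 and 404 CPM (-0.08). Among 15 other steroid dehydrogenases and reductases 9 rose and 2 fell (median 0.22). Hsd17b7, which also serves cholesterol synthesis, rose from 357 to 668 CPM (0.90), Dhrs11 rose (0.49), and Rdh10 and Dhrs3, which act on retinoids, fell (-0.53 and -0.40).

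The remaining lists were mixed in direction. Of 6 steroid conjugation genes, Papss2, which makes the sulfate donor, rose (0.60), Ugdh, which makes the glucuronic acid donor, fell from 400 to 240 CPM (-0.74), Sult2b1 fell from 3.26 to 2.15 CPM (-0.60, adjusted p = 0.0473), and the other 3 did not pass (median -0.02). The glucocorticoid list held 16 tested genes, of which 4 rose and 6 fell (median -0.01). In it Errfi1 (-1.33), Cebpd (-0.91), Sgk1 (-0.57), Dusp1 (-0.48), Tsc22d3 (-0.25) and Fkbp4 (-0.17) fell. Cdkn1c rose from 1.20 to 3.07 CPM (1.35), and Klf9 (0.30), Per1 (0.27) and H6pd (0.30), which supplies NADPH to Hsd11b1, rose too. Relative to the median of chromosome 19, Klf9 stood at -0.21. The glucocorticoid receptor gene Nr3c1 (46.4 and 49.9 CPM) and Fkbp5 did not pass. Of 14 prostaglandin genes 5 rose and Ptger1, near 1 CPM, fell (-0.85, adjusted p = 0.0393, list median 0.17), with Ptgis, the prostacyclin synthase, at 62.5 and 117 CPM (0.91), Cbr3 at 0.35, Ptgr2 at 0.28 and Ptges2 at 0.24, while the cyclooxygenase genes Ptgs1 and Ptgs2 never exceeded 11 and 9 counts.

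Of 18 genes of the polyol pathway and aldehyde clearance 8 rose and 3 fell (median 0.11). Adh1 (1.88), Aldh1a7 (1.48), Aldh1a1 (0.69) and Aldh3b1 (0.63) rose, Sord, which follows Akr1b3 in the polyol pathway, fell (-0.18), and the abundant Adh7 was at 3229 CPM in WT and did not pass (-0.00). The 3 Aldh genes named lie on chromosome 19. Relative to its median they stood at 0.97, 0.17 and 0.11, and Papss2, on the same chromosome, at 0.09. Of 20 targets of NRF2, the factor of the antioxidant response, 5 rose and 10 fell (median -0.06). Nqo1 fell from 120 to 66.1 CPM (-0.87), Slc7a11 by 0.67, Gstm1 by 0.47 and Srxn1 by 0.45 on the log2 scale. Slc7a11 and Gstm1 lie on chromosome 3 and stood at -0.45 and -0.25 relative to its median. Among 19 factors known to act on genes of these families 6 rose and 5 fell (median 0.06). Prlr, the prolactin receptor, rose from 16.1 to 95.4 CPM (2.57, adjusted p = 2.22e-11), Cebpa rose (1.74), and Fosl1 (-1.42) and Crem (-0.96) fell. Nr5a1, which encodes steroidogenic factor 1, was at 544 and 549 CPM (0.01, adjusted p = 0.869), and Pgr had at most 2 counts. In the rodent ovary prolactin is known to keep Akr1c18 low, and whether Prlr had a part in the Akr1c18 level here was not tested. The share of genes called was 50% to 75% in these lists apart from 42.9% in the prostaglandin list, beside 42.7% of all genes. Some of the small counts that fell changed when 1 library was left out. No other aldo-keto reductase fell (0) without WT library 2 or 3 or KO library 1 or 3, and no prostaglandin gene fell (0) without WT library 1, 3 or 4 or KO library 1, 2 or 4. One conjugation gene (1) fell without WT library 3 or 4 or KO library 2, 3 or 4, 1 polyol gene without WT library 2 or KO library 1, and 2 production genes without WT library 1.

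**Figure D4:**
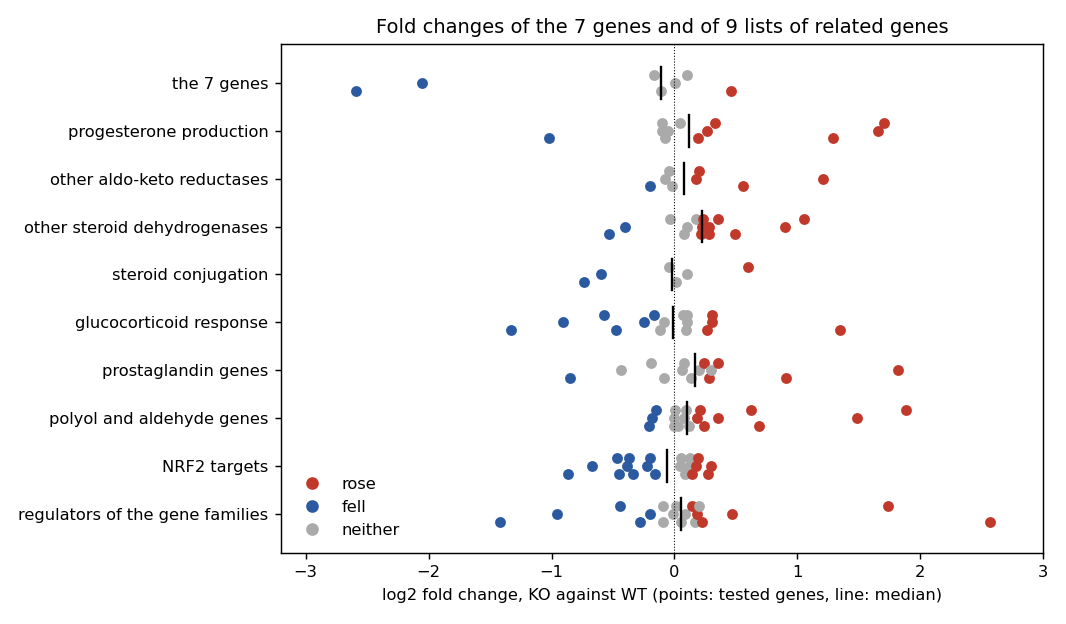
Log2 fold change, KO against WT (x axis), of every tested gene of 10 sets: the 7 genes and 9 lists of related genes. Red points rose, blue points fell, grey points did not pass the test, and the black line is the set's median. Akr1c18 (-2.59) and Hsd11b1 (-2.05) lie below every listed gene, the lowest of which is Fosl1 (-1.42), and Prlr (2.57) is the highest point.

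The genes whose profiles over the 8 libraries were nearest to those of the 3 called genes were found among 10034 genes with a mean of at least 5 CPM, by the Euclidean distance between log2 CPM values centred on each gene's mean. Nearest to Akr1c18 were H2-Q4 (distance 0.326, from 12.2 to 2.23 CPM), Itga6 (0.409) and Edn2 (0.447). Nearest to Akr1b7 were AI464131 (0.156), Ephb4 (0.189) and Coq10a (0.225). Nearest to Hsd11b1 were Itga6 (0.834), Ogn (0.855) and Casp1 (0.944), all farther off than the neighbours of the other called genes. Itga6, the integrin α6 gene, went from 54.6 to 10.7 CPM and stood in both lists of genes that fell.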

How the data were processed

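MA-10 mRNA was selected with poly-T beads and sequenced, and the deposited table of raw read counts per gene was made by the authors' sequencing provider. HISAT2 2.0.5 and featureCounts 1.5.0-p3 are named in the submitters' processing notes, and no source used here gives the strand or multi-mapping settings. The build is GRCm38, since 99.9% of the symbols shared with RefSeq GRCm38.p6 overlap it in position. The characteristics label gives the same genotype for every library, so groups were taken from the titles. The 7 genes and all lists were chosen with earlier results of these data known.

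Genes passing filterByExpr (minimum count 10, minimum total 15) were tested in edgeR 4.0.16 with TMM scaling and the quasi-likelihood F test on genotype, adjusted by Benjamini-Hochberg over 13185 genes. SEs were derived from the F statistic. CPM used TMM-scaled totals, and TPM used the table's gene lengths. Ratios of length-scaled counts (pseudocount 0.5 counts) were compared by the exact 2-sided permutation test. Named genes were all 7, and from each list up to 4 called genes with the largest fold change at a mean of at least 5 CPM in the higher group; others were named after their values were seen. Alternatives were DESeq2 1.42.0, limma 3.58.1 (voom), other filters and scalings, glmTreat, centring on the chromosome median, a replicate block and leaving out each library, in R 4.3.3. The edgeR step was tested on simulated data. Coding sequences of GENCODE M39 were compared in place of the proteins. Promoters are from RefSeq GRCm38.p6, which was matched for 5 of the 7 genes.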

Additional observations from a re-analysis of the deposited data

Results flagged for a closer look

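Of 94 groups of 4 libraries searched, 3 held a library that stood apart from the other 3, and chance alone gives such a gap in about 1 group in 20. Akr1e1 was at 26.8 CPM in WT library 3 and at 24.8 to 25.1 CPM in the other WT libraries. Akr1b10 was at 90.8 CPM in KO library 2 and at 97.0 to 98.2 CPM in the other KO libraries. Hsd17b7 was at 728 CPM in KO library 4 and at 640 to 653 CPM in the other KO libraries. None of these genes is among the 7.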

How the results depend on the processing

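Of 123 alternative values of the 7 genes, 118 kept the side of the threshold. Those that did not were Akr1b7 when tested against 0.5 with glmTreat (0.46, adjusted p = 1), Akr1b8 centred on its chromosome (0.20), and Akr1b3 with genes of at least 1 count kept (-0.16, adjusted p = 0.00524) or without WT library 4 or KO library 4, with a range of -0.23 to -0.087 over the libraries left out. Akr1c14 and Hsd11b2 passed under no alternative, but the sign of each changed in some of them. Without 1 library the value ran from -0.098 to 0.12 for Akr1c14 and from -0.46 to 0.16 for Hsd11b2. Between 0 (glmTreat) and 2 (centred) of the 7 rose. None fell (0) when 10 counts were required in every library, since that filter takes out Akr1c18 and Hsd11b1. With glmTreat 1003 genes were called (451 rose, 552 fell), against 5632 (2856 and 2776) in the main test and 2082 (969 and 1113) with the limit of 0.5. In the lists, the number that fell was 1 for steroid conjugation with voom, and 0 for the prostaglandin list with DESeq2 or without the filter. Without 1 library the number that fell was 0 to 1 of the other aldo-keto reductases, 1 to 2 for conjugation, 1 to 2 for progesterone production, 0 to 1 for the prostaglandin list and 1 to 3 for the polyol list. The log2 ratio differences without 1 library were -2.73 to -2.44 for Akr1c18 to Akr1c14, 0.58 to 0.73 for Akr1b7 to Akr1b3, 0.21 to 0.32 for Akr1b8 to Akr1b3, -2.15 to -1.52 for Hsd11b1 to Hsd11b2 and -3.90 to -3.81 for Akr1c18 to Cyp11a1, with adjusted p of 0.0286 to 0.0571. Without 1 library the unadjusted permutation p moves in steps of 0.0286, so no value between 0.0286 and 0.0571 was possible. For every pair the WT and KO libraries stayed apart when 1 library was left out. The cause of the other changes was not tested. Same-numbered libraries deviated together with r of -0.15 to 0.04, other pairs with -0.07 to 0.18, and 4 of 8 libraries were nearest to their own number. Correlations this weak cannot decide whether the numbers pair the libraries. A replicate block changed no call of the 7 genes and left 1 conjugation gene and 0 prostaglandin genes that fell. Hsd11b2, Akr1c18 and Hsd11b1 rest on few counts, which sets their precision.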
